A study of Homo sapiens with 4 samples.

Results

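The genes for the proteins of the mitochondrial ribosome were followed through a map of H3K27ac, the acetylated form of histone H3 that marks active promoters and enhancers, in the established human melanoma line A375. Members were all genes of the authors' deposited table whose symbol began with MRPL or MRPS and a digit. This gave 77 of 17301 genes, on 305 of 95312 lines of the table and in 304 of its 91107 distinct regions. The study's 4 chromatin immunoprecipitation libraries, per the labels, came from A375 cells kept in DMEM with fetal bovine serum: 2 given isopropanol as vehicle and 2 given the medium-chain fatty acid octanoate (1 mM), all for 48 h. The labels do not say whether the libraries of a group came from separate cultures, and A375 is 1 line, so the errors below speak for these libraries only.

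For each region the authors' deposited table lists a mean level over libraries, a log2 fold change with its standard error, and raw and adjusted p-values, but nothing for single libraries. Depth per library was therefore unknown, and each value printed with ± is a fold change with the standard error of the authors' model. The header does not name the numerator of the fold change, so values are called positive or negative and not gains or losses under octanoate. Regions with a mean level of at least 18.4, in the authors' normalized units, carried an adjusted p-value and are called tested regions. Genes were assigned to regions by the authors, and an assignment does not show that the region acts on the gene.

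Mitochondrial ribosomes translate the few messenger RNAs of the mitochondrial genome, which encode core subunits of the respiratory chain and of ATP synthase. Their RNAs are made inside the organelle, but all their proteins are encoded in the nucleus, translated in the cytosol and imported. Many of these proteins descend from those of the bacterial ribosome, and others are found only in mitochondria. Promoters of nuclear genes for mitochondrial proteins are known to hold binding motifs for the factors NRF1, GABP (of the ETS family) and YY1. MRPS36 carries the name of the family, but its product is in current use a subunit of the 2-oxoglutarate dehydrogenase complex, and MRPS18A and MRPS30 encode proteins of the large subunit.

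The promoters at the ends of the range of fold changes are shown first, because they let the members with the most and the least positive values at their starts be compared letter by letter. Each line gives 150 bases before to 30 bases from the RefSeq start onwards on GRCh38.p14, read 5′ to 3′ on the gene's strand. Capitals mark matches, on either strand, to 6 short motifs: GCATGCGC for NRF1, CCGGAAG for ETS factors, AAGATGGCG for YY1, CACGTG for the E-box, CCAAT for the CCAAT box and GGGCGG for SP factors. MRPS36 and MRPL41 had the largest fold changes at their starts among members with a promoter entry, and MRPL12, MRPL44 and MRPL11 the smallest.
MRPS36 (chr5:69217610-69217789, plus strand): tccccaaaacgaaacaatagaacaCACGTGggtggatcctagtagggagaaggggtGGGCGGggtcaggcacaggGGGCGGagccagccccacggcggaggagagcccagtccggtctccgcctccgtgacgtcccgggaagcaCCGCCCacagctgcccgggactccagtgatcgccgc
MRPL41 (chr9:137551729-137551908, plus strand): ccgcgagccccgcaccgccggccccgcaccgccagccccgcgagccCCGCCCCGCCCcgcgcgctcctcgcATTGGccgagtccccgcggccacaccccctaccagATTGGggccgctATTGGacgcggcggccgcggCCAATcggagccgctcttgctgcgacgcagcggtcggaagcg
MRPL12 (chr17:81703217-81703396, plus strand): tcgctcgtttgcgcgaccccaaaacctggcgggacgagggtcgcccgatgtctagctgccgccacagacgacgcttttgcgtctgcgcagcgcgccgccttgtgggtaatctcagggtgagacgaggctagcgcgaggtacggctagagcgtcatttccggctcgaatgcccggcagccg
MRPL44 (chr2:223957313-223957492, plus strand): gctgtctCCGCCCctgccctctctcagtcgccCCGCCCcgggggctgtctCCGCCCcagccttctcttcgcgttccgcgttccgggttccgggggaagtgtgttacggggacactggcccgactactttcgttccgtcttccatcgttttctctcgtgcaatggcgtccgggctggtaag
MRPL11 (chr11:66438819-66438998, minus strand): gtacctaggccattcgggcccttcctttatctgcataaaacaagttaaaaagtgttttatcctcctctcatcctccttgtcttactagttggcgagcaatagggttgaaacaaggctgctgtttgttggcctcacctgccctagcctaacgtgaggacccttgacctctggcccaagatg
MRPS36 showed an E-box and SP matches, and MRPL41, a mitochondria-specific protein of the large subunit, showed CCAAT matches in both orientations and SP matches in the CCGCCC orientation. MRPL44, a large-subunit protein with an RNase III fold, also showed SP matches as CCGCCC. None of the 6 motifs was matched in the printed stretches of MRPL12 and MRPL11. Outside its printed stretch, MRPL44 also held a CCAAT match, 227 bases before the start.

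A further 4 promoters, chosen after their values were seen, show a pair of genes with a common region and a pair with both an ETS and a YY1 match. MRPL46 and MRPS11, a large- and a small-subunit gene that diverge from starts 320 bases apart, shared a region. MRPS10 and MRPS18A each held an ETS match before the start and a YY1 match just after it.
MRPL46 (chr15:88467359-88467538, minus strand): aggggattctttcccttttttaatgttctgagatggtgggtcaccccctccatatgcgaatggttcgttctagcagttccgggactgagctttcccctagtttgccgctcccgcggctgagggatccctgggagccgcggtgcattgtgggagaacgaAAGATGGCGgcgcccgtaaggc
MRPS11 (chr15:88467558-88467737, plus strand): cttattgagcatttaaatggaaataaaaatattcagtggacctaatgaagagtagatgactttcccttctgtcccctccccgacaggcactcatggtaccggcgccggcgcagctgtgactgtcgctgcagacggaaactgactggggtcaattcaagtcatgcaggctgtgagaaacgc
MRPS10 (chr6:42217832-42218011, minus strand): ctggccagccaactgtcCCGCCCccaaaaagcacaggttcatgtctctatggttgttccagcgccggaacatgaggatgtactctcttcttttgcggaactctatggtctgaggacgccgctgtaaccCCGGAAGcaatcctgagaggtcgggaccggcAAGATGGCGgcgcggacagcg
MRPS18A (chr6:43687762-43687941, minus strand): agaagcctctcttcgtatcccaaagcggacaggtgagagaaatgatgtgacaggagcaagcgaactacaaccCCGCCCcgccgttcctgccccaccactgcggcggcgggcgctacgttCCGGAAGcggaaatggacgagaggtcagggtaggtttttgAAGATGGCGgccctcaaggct

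Every member gene had exactly 1 region at distance 0 in the authors' deposited table, called its start region here, and 69 of the 77 had an entry in the RefSeq promoter table. In all 69 this region held the gene's first RefSeq start, at a median of 440 bases from the region's centre. MRPL46 and MRPS11 were listed with the same region, so there were 76 distinct regions at starts, of which 75 were tested. The exception was MRPL23, a large-subunit protein near the exit tunnel. Its start region (chromosome 11, 1946672 to 1949589) had a mean level of 5.43 in the authors' deposited table and a fold change of 0.13 ± 0.70.

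No member region passed the authors' threshold. Of the 141 tested member regions, 0 had an adjusted p-value under 0.05 by DESeq2 in the authors' deposited table, where 1.67% of all tested regions did. At starts the count was 0 of 75 for members, beside 0.86% of all tested regions at starts. The nearest member to the threshold was a region within MRPS27, whose adjusted p-value by DESeq2 was 0.0531 in the authors' deposited table. An unadjusted p-value under 0.05 was found for 15 of the 141 member regions, all positive, and for 16 of all 304; of all tested regions 17.9% were positive with such a p-value. At starts the number was 7 of 75, where 19.2% of all tested starts were positive with an unadjusted p-value under 0.05.

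Most member regions had small positive fold changes, as did most regions of the table. The 141 tested member regions had a median log2 fold change of 0.26 (quartiles 0.12 and 0.40), and 130 of them, 92.2%, were positive in the authors' deposited table. All 36436 tested regions had a median of 0.32 (0.15 and 0.50) with 87.3% positive. Values of tested member regions ran from -0.51 to 1.01. With the median of all tested regions, 0.32, subtracted, 37.6% of the tested member regions stayed above 0. The subtraction itself puts the median of all tested regions at 0. After it, 0 member regions passed an adjusted threshold of 0.05, and only 45 of all 36436 tested regions did. The smallest adjusted p-value of a member was then 0.407. A scaling difference between libraries and a general difference in acetylation cannot be told apart in this table, so member values are read below against those of other regions.

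At their starts, most members had a fold change below the median of all starts. The 75 tested regions at member starts had a median log2 fold change of 0.26 (quartiles 0.21 and 0.37), a ratio of 1.19, and 73 were positive. All 9996 tested regions at starts had 0.35 (0.24 and 0.49), a ratio of 1.28, and 98.1% were positive. Of the member starts, 54 of 75, or 72.0%, lay below the median of all starts in the authors' deposited table, 31 lay below the lower quartile of all starts and 8 above the upper one. The difference of medians, members minus all starts, was -0.096. Single member starts had a median standard error of 0.24, and 66 of 75 of them, 88.0%, lay within 1 standard error of the median of all starts, as did 83.1% of all tested starts. The SD over the 75 member starts was 0.14. No test of the difference was made, because members are not replicates of a condition and the table holds no library values.

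**Figure D1:**
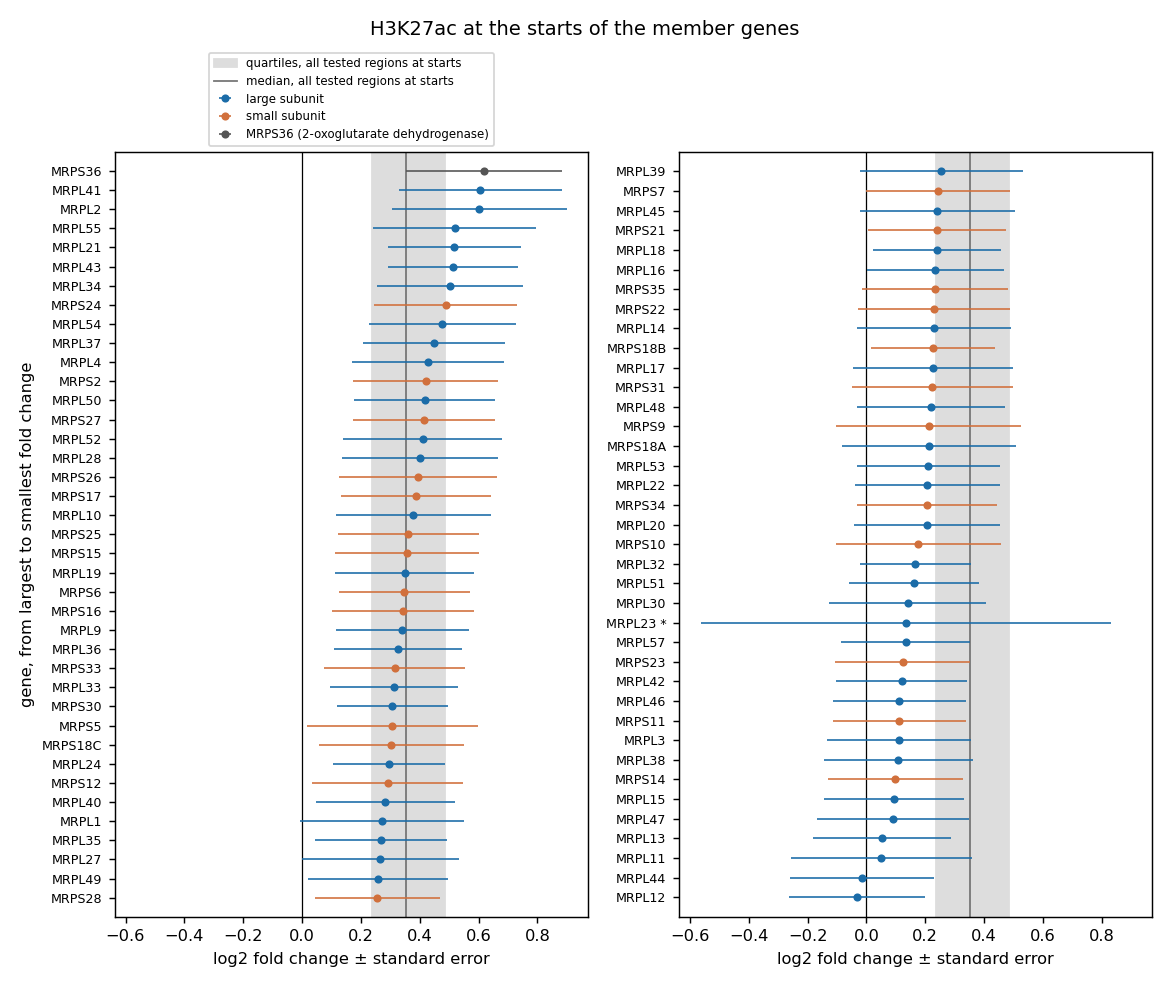
Log2 fold change with its standard error (horizontal axis) for the start region of each of the 77 member genes, in order of size from the top of the left panel to the foot of the right panel, coloured by ribosomal subunit, with MRPS36 in dark grey. The grey band spans the quartiles of all 9996 tested start regions (0.24 and 0.49) and the grey line is their median of 0.35. MRPL23, with an asterisk, had no adjusted p-value, and MRPL46 and MRPS11 show the same region. The bars of 66 of the 75 tested regions reach the grey line.

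The members' regions were similar in level and width to other start regions, and the difference was also seen among starts of like level. Member starts had a median level of 101 in the authors' deposited table, from 40.8 to 742, and a median width of 3289 bases; all tested starts had medians of 87.8 and 3317 bases. The 8584 tested starts within the members' range of levels had a median log2 fold change of 0.34, and 66.7% of the members lay below it. Within the middle quartiles of the members' levels, 37 members had a median of 0.28 and all 2929 starts a median of 0.33. Over the 75 member starts, Spearman's rho of the fold change was -0.10 with level and -0.23 with width, given as a description over regions that share the same libraries. Level and width rose together (rho 0.75), and the standard error was lower at higher level (rho -0.81).

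**Figure D2:**
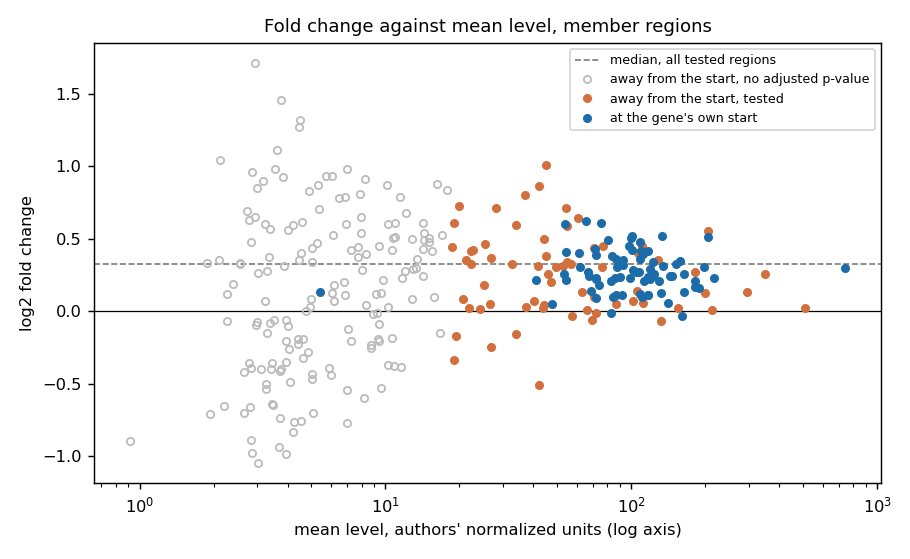
Log2 fold change (vertical axis) against the authors' mean level (horizontal log axis) for all 304 member regions; blue points are regions at the gene's own start, orange points tested regions elsewhere, and open circles regions without an adjusted p-value. The dashed line is the median of all tested regions, 0.32. The start regions form a narrow cloud between -0.03 and 0.62, and the untested regions at low level scatter widely on both sides of 0.

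The ends of the member range were set by few genes. The largest value at a start belonged to MRPS36 (chromosome 5, 69216849 to 69219498), with 0.62 ± 0.27 at a level of 65.6 in the authors' deposited table and an unadjusted p-value of 0.0198. MRPL41 (chromosome 9, 137549951 to 137552930) followed with 0.61 ± 0.28, and MRPL2 (chromosome 6, 43058398 to 43060713), which encodes a core protein of the peptidyl transferase region, with 0.60 ± 0.30. The intervals of 1 standard error of these 3 overlapped widely. MRPL55, MRPL21, MRPL43, MRPL34 and MRPS24 came next in the authors' deposited table, with 0.52, 0.52, 0.51, 0.50 and 0.49. Among all tested starts 11.0% had a larger value than MRPS36.

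At the other end were 2 negative values. MRPL12 (chromosome 17, 81701343 to 81704786), the stalk protein that contacts translation factors, had -0.03 ± 0.23 in the authors' deposited table at a level of 161, and MRPL44 (chromosome 2, 223956550 to 223961556) had -0.02 ± 0.24. MRPL11 (chromosome 11, 66437911 to 66439079), at the base of the stalk, had 0.05 ± 0.31, MRPL13 also 0.05, and MRPL47 0.09. None of these lay beyond 1 standard error from 0. Of all tested starts, 1.30% had a smaller value than MRPL12.

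Levels at member starts covered a wide range. The highest by far was the region of MRPL24 (chromosome 1, 156739421 to 156753866), with a level of 742 over 14445 bases in the authors' deposited table, also the widest at a member start, and listed with the neighbouring gene HDGF, a growth factor. Its fold change was 0.29 ± 0.19. MRPS18B, a small-subunit protein, followed at 217 and MRPL43 at 204. The lowest tested levels were 40.8 at MRPS9 and 47.7 at MRPL11. The next widest regions were those of MRPL32 (10134 bases) and MRPS30 (8185 bases), and the narrowest those of MRPL11 (1168 bases), MRPS9 (1913 bases) and MRPS15 (2165 bases).

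Members were also grouped by subunit and by the ancestry of the protein. At tested starts the 49 large-subunit genes had a median log2 fold change of 0.26 (SD 0.16 over genes) and the 26 small-subunit genes 0.27 (SD 0.10) in the authors' deposited table. The 2 negative values and 5 of the 7 unadjusted p-values under 0.05 belonged to the large subunit, 1 to MRPS24 of the small subunit and 1 to MRPS36. Proteins with a bacterial counterpart had a median of 0.25 in the large subunit (28 genes) and 0.30 in the small (16 genes). Those specific to mitochondria had 0.26 (21 genes) and 0.23 (10 genes). The differences between these medians were not tested.

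Related gene families placed the members between others. The 75 tested starts of cytosolic ribosomal protein genes, whose products form the ribosomes of the cytosol, had a median log2 fold change of 0.20 (quartiles 0.15 and 0.26) in the authors' deposited table, at a median level of 233 and width of 6416 bases. The 34 starts of proteasome subunit genes and the 79 of respiratory chain and ATP synthase genes both had 0.33, with median levels of 124 and 92.9. Below the median of all starts lay 70 of the 75 cytosolic, 21 of the 34 proteasome and 42 of the 79 respiratory chain starts, beside 54 of 75 for the members. The respiratory chain genes, whose levels and widths were close to the members', thus had the higher median, and their quartiles (0.25 and 0.43) overlapped those of the members. No region of any of these families passed an adjusted p-value of 0.05 by DESeq2 in the authors' deposited table, where 1.67% of all tested regions did. Among 125, 50 and 124 tested, 9, 5 and 13 regions had an unadjusted p-value under 0.05 by DESeq2, all positive. Of all tested regions, 17.9% were positive with such a p-value.

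**Figure D3:**
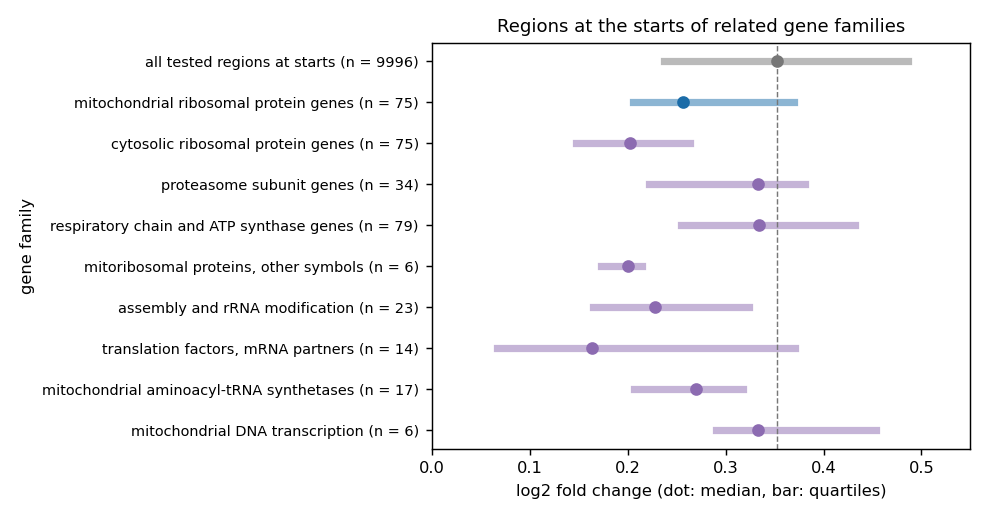
Median (dot) and quartiles (bar) of the log2 fold change (horizontal axis) over tested start regions of each gene family; n is the number of regions, and the dashed line is the median of all 9996 tested starts, 0.35. The member bar (0.21 to 0.37) lies to the left of the respiratory chain bar (0.25 to 0.43) and to the right of the cytosolic ribosomal bar (0.15 to 0.26), with overlap on both sides. The last 5 rows are the lists for other parts of mitochondrial translation.

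Other genes of mitochondrial translation were described by 5 lists. Across all 5, 67 genes had 96 tested regions, of which 88 were positive. Of the 96, 0 passed the adjusted threshold of DESeq2 in the authors' deposited table, where 1.67% of all tested regions did. An unadjusted p-value under 0.05 by DESeq2 was found for 9 of the 96, all positive. Of all tested regions, 17.9% were positive with such a p-value. Their 66 tested starts had a median of 0.24. The 6 mitoribosomal proteins under other symbols (AURKAIP1, CHCHD1, DAP3, GADD45GIP1, ICT1 and PTCD3) had a median of 0.20, and all 6 lay below the median of all starts. Of the 23 genes for assembly and rRNA modification, with a median of 0.23, NGRN, a factor for the large subunit's 16S rRNA, had the largest value, 0.54 ± 0.23. The 14 translation factors and mRNA partners had a median of 0.16, from 0.03 at TACO1, an activator of COX1 translation, to 0.46 at MTFMT, which formylates the initiator tRNA.

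The aminoacyl-tRNA synthetases of mitochondria, which charge its tRNAs, had a median of 0.27 over 17 starts in the authors' deposited table. Of the 17, 15 lay below the median of all starts, with FARS2 lowest at 0.01 ± 0.27. The largest values were those of MARS2 at 0.58 ± 0.25 and YARS2 at 0.52 ± 0.23. The 6 genes for transcription of mitochondrial DNA had a median of 0.33 at starts, and 3 of the 6 lay below the median of all starts. Their values ran from 0.04 ± 0.22 at MTERF1 to 0.57 ± 0.25 at POLRMT, the mitochondrial RNA polymerase. The elongation factor TEFM had 0.48 ± 0.23. Of the 10 tested regions of these genes, 7 were positive. The starts of MARS2, YARS2, POLRMT, TEFM and NGRN had unadjusted p-values from 0.0185 to 0.0316 by DESeq2 in the authors' deposited table. Their adjusted ones were at least 0.193. Among tested regions of the lists away from starts, the smallest unadjusted p-values by DESeq2 were 0.00657 at EARS2 (0.82 ± 0.30) and 0.00988 at FARS2 (0.87 ± 0.34).

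Member genes often shared their start region with another gene. Of 77 members, 32 (41.6%) were listed in the authors' deposited table with a start region that also lay over the start of another gene, beside 23.7% of all 12142 genes with a start region. The share was 30.7% for cytosolic ribosomal protein genes, 34.3% for proteasome genes and 45.6% for respiratory chain genes. In RefSeq, 20 of 69 members, 29.0%, had a coding neighbour that started within 1000 bases in the opposite direction, against 18.0% of the 9214 coding genes with a tested start region. Membership of the lists and families described here went by symbol, and FAU (with MRPL49) was not among those symbols. Besides the pair MRPL46 and MRPS11, the partners with such a symbol were NDUFS6 (with MRPL36) and NDUFB5 (with MRPL47), both for subunits of complex I, SARS2 (with MRPS12), the mitochondrial seryl-tRNA synthetase, and PSMA2 (with MRPL32), a proteasome subunit. Most partners had other symbols, such as HIRA, a histone chaperone, with MRPL40 and TCP1, a cytosolic chaperonin subunit, with MRPL18.

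Shared member starts were wider and had higher levels than unshared ones, with a similar median fold change. The 31 shared member starts had a median level of 123 and a median log2 fold change of 0.28 in the authors' deposited table. The 44 unshared ones had 88.2 and 0.25. Median widths were 4044 bases when shared and 2871.5 when not, and median levels per kb were 30.7 and 27.7. Over all tested starts the order of the fold changes was the other way round, 0.31 when shared and 0.36 when not. With a divergent RefSeq neighbour the members' median was 0.25 (20 genes), and without one 0.26 (49 genes). The shared region of MRPL46 and MRPS11 (chromosome 15, 88465949 to 88469234) had 0.11 ± 0.23 at a level of 117, so the table cannot assign its signal to either gene.

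Member promoters held ETS and YY1 matches more often than other active promoters did. In the window from 250 bases before to 50 after the first RefSeq start, read on both strands, CCGGAAG was matched in 28 of 69 member promoters, 40.6%, against 20.8% of the 9214 coding promoters with a tested start region and 14.2% of all 15843. AAGATGGCG was matched in 13 of 69, 18.8%, against 4.25% and 2.74%. GCATGCGC was matched in 6 of 69, 8.70%, against 5.96% and 4.26%. The 95% Wilson intervals of the member shares were 29.8 to 52.4% for ETS, 11.4 to 29.6% for YY1 and 4.05 to 17.7% for NRF1, and they cover counting error only. Cytosolic ribosomal protein promoters held ETS and YY1 matches in 33.9 and 8.06%, and respiratory chain promoters in 28.4 and 10.8%, values within or just below the members' intervals. At least 1 of the 3 was present in 38 member promoters, 55.1%, beside 28.3% of those with a tested start region, 43.5% of cytosolic ribosomal, 41.2% of proteasome and 44.6% of respiratory chain promoters, and MRPL52 held all 3. None of the motifs' letters contain another of the 6 motifs, and a match is a description of letters and not a bound site.

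Most YY1 matches lay close to the start. Of the 14 YY1 matches, in 13 genes, 12 lay on the gene's own strand and 10 lay after the start. The median position of all 14 was 8.5 bases after the start. The YY1 match lay 8 bases after the start in MRPL46 and 9 bases after it in MRPS10 and MRPS18A, as the capitals in the printed sequences show. The 37 ETS matches had a median position 22 bases before the start, with 17 on the gene's strand. The E-box, CCAAT and SP letters were not more frequent in members, with 10.1, 29.0 and 60.9%, than in coding promoters with a tested start region, with 10.4, 37.4 and 71.8%. Median GC content was 60.3% in members and 65.3% in those promoters, and the observed to expected ratio of CpG was 0.879 and 0.850.

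**Figure D4:**
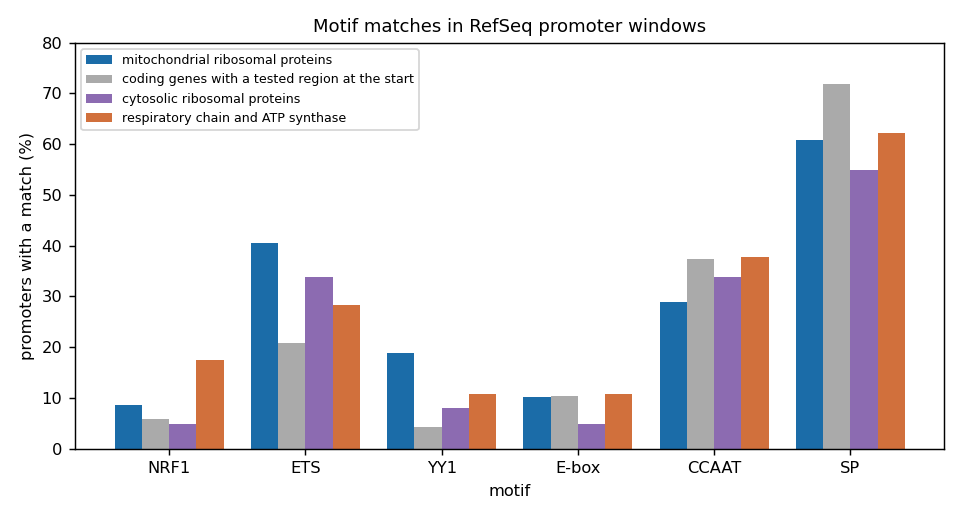
Share of promoters with at least 1 match to each motif (vertical axis, percent) in members (69 promoters), coding genes with a tested start region (9214), cytosolic ribosomal protein genes (62) and respiratory chain and ATP synthase genes (74). Member bars stand highest for ETS (40.6%) and YY1 (18.8%), the respiratory chain bar is highest for NRF1 (17.6%), and the member bar is below the grey bar for CCAAT and SP.

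Fold changes were set beside these letters. Members with an ETS match had a median log2 fold change of 0.23 in the authors' deposited table and those without 0.27; with a YY1 match it was 0.21 and without 0.26. Members with a CCAAT match had 0.30 and without 0.24, and with an SP match 0.28 and without 0.23. These differences were not tested. Spearman's rho between GC content and fold change was 0.16 over 68 members.

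Away from their starts, 47 of the 77 genes had 228 further regions, and 30 genes had none. Of these, 66 were tested, with a median log2 fold change of 0.26 (SD 0.29) in the authors' deposited table. Positive were 57 of them (86.4%), and 8 (12.1%) were positive with an unadjusted p-value under 0.05 by DESeq2. All 26440 tested regions away from starts had a median of 0.31. Of these, 83.2% were positive and 17.5% were positive with such a p-value. The other 162 had too low a level to be tested, and 95 of them were positive. By distance, the tested member regions under 10 kb from the start had a median of 0.44 (11 regions), those at 10 to 100 kb 0.28 (34 regions) and those beyond 100 kb 0.14 (21 regions). Over all genes the same bins had 0.35, 0.32 and 0.27, but these left out regions at the start of any gene. The member bins kept regions at starts of other genes. Under 10 kb these included the MRPL2 region at the start of CUL7 (0.44), which set the median, and the MRPL34 region at the start of ABHD8 (0.56). The bins are therefore not like for like. The bin under 10 kb held 11 regions, and of the 21 regions beyond 100 kb 17 lay beside MRPL39, 3 beside MRPS30 and 1 beside MRPL57.

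**Figure D5:**
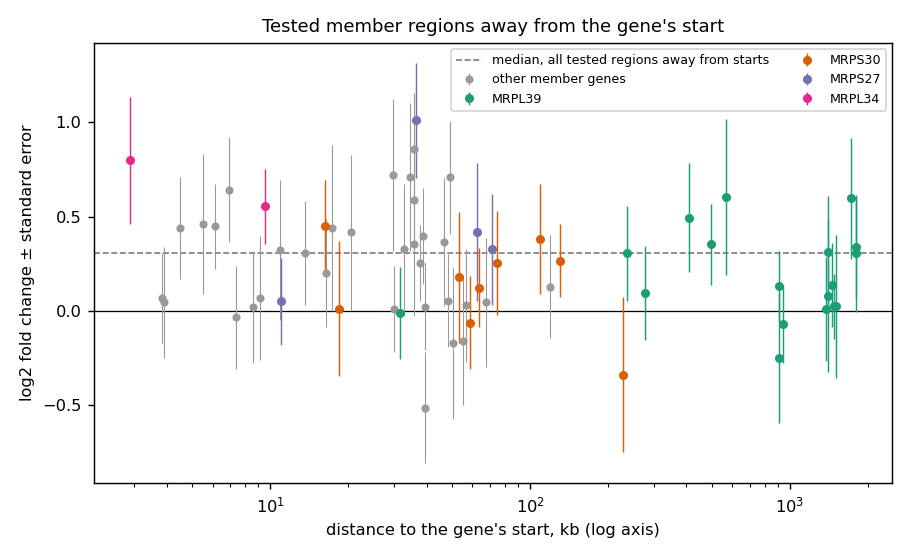
Log2 fold change with its standard error (vertical axis) against distance to the gene's start (horizontal log axis, kb) for the 66 tested member regions away from the gene's own start, with MRPL39, MRPS30, MRPS27 and MRPL34 coloured. The dashed line is the median of all tested regions away from starts, 0.31. The point at 1.01 is the MRPS27 region, and the points beyond 300 kb all belong to MRPL39.

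The largest value of a tested member region lay within MRPS27, which encodes a pentatricopeptide-repeat protein of the small subunit. The region (chromosome 5, 72281003 to 72283860), 36.4 kb from the start, had 1.01 ± 0.31, a ratio of 2.01, at a level of 45.0 in the authors' deposited table. Its unadjusted p-value was 0.000964 and its adjusted one 0.0531 by DESeq2 in the authors' deposited table. All 19 further regions of the gene lay within its body, and 4 were tested, with 0.05, 0.33, 0.42 and 1.01. At the start, which shares its region with PTCD2, the value was 0.41 ± 0.24. The region within the gene was the only one of the 5 tested regions more than 2 standard errors from 0.

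MRPS18A had 4 tested regions on its side towards VEGFA, the vascular growth factor gene that is the next coding gene there. All 4 were positive in the authors' deposited table, with 0.32, 0.31, 0.42 and 0.86 in order of distance from 10.9 to 35.8 kb. The last (chromosome 6, 43723598 to 43726188) had 0.86 ± 0.29 and an unadjusted p-value of 0.00348, with an adjusted one of 0.0979 by DESeq2. The start of MRPS18A had 0.21 ± 0.30. The assignment to MRPS18A rests on distance alone.

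MRPL34, for a small protein of the large subunit, was positive throughout. Its 3 regions had 0.50 ± 0.25 at the start (chromosome 19, 17291845 to 17294028), 0.80 ± 0.34 at 2.89 kb (17295499 to 17297044) and 0.56 ± 0.20 at 9.58 kb (17302187 to 17307439) in the authors' deposited table. All 3 had unadjusted p-values under 0.05, with 0.00499 for the last at a level of 205. That region is listed also at the start of ABHD8, a neighbouring gene, and held 3 other RefSeq starts of MRPL34, so it lies at starts although its distance to the gene is above 0. Its adjusted p-value by DESeq2 was 0.115 in the authors' deposited table.

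The other large values of tested regions away from starts were 0.72 ± 0.40 at MRPS24, 0.71 ± 0.39 at MRPS6, 0.71 ± 0.30 at MRPL33, 0.64 ± 0.28 at MRPL48, 0.60 ± 0.41 and 0.60 ± 0.32 at MRPL39 and 0.59 ± 0.27 at MRPS35 in the authors' deposited table. MRPL33 (chromosome 2, 27718911 to 27722687) had an unadjusted p-value of 0.0176, and MRPL33 held 5 tested regions away from the start, from -0.03 to 0.71. The most negative value of a tested member region was -0.51 ± 0.29, within MRPL13 (chromosome 8, 120403429 to 120406062), with an unadjusted p-value of 0.0799. MRPS30 had -0.34 ± 0.41, MRPL39 -0.25 ± 0.35, MRPS22 -0.17 ± 0.40 and MRPS6 -0.16 ± 0.34. No tested member region was more than 2 standard errors below 0. Clear negative values were rare in the whole table too. Of all 36436 tested regions, 6711 had an unadjusted p-value under 0.05 by DESeq2, and 6538 of those were positive.

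Far regions were concentrated in few genes. Beyond 50 kb lay 99 regions of 12 genes, 31 of them tested: 50 beside MRPL39, 16 beside MRPS30, 9 each beside MRPS27 and MRPS28, 4 beside MRPL57 and 3 beside MRPS22. MRPS6 and MRPL48 had 2 each, and MRPL1, MRPL15, MRPL19 and MRPL46 had 1 each. All 51 regions of MRPL39 away from its start lay between that gene and NCAM2, a neural adhesion gene, at 31.7 to 2220 kb. Of the 18 tested ones, 15 were positive, with a median log2 fold change of 0.14 from -0.25 to 0.60 in the authors' deposited table. The one with the highest level had 508 over 26508 bases and a fold change of 0.02 ± 0.17. The start of MRPL39 had 0.26 ± 0.28 at a level of 53.3 over 2780 bases. The highest level assigned to MRPL39 thus lay far from its start, but in a much wider region. These levels are for whole regions and are not divided by width.

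MRPS30, for a large-subunit protein, had 22 regions away from its start. Of these, 9 were tested and 7 of the 9 were positive, with a median of 0.18 from -0.34 to 0.45 in the authors' deposited table. The start region of MRPS30 (chromosome 5, 44806135 to 44814320) had 0.31 ± 0.19 at a level of 198. MRPS28 had 10 regions away from its start, and none reached the level of a tested region.

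The labelled cell type was checked by levels at the starts of marker genes. In the authors' deposited table SOX10 had a level of 774, above 99.7% of start regions, and PMEL 269, above 95.1%. MITF had 98.4, above 59.9%, and S100B 55.2, above 28.8%. Regions at distance 0 were not found for MLANA, TYR and DCT of the melanocyte lineage, nor for CDH1, KRT5, PTPRC and CD3E of epithelium and blood. The epithelial gene EPCAM had 50.5, above 25.4% of start regions and near S100B.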

How the data were processed

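H3K27ac chromatin immunoprecipitation libraries from A375 cells, 2 vehicle and 2 octanoate per the labels, were compared by the authors. The submitters' processing notes name Trim Galore, cutadapt, FastQC, Bowtie2, Picard, MACS2, featureCounts, DESeq2, bedtools 2.29.1 and the build hg38, with no role or order. Mean levels are a normalized signal made by the authors, with scaling not given in the sources used here. Fold changes and their errors are log2 values per the file headers. The score in the deposited table equalled their ratio, and the deposited p-value followed from it under a two-sided normal test. Adjusted values of 1 in the deposited table were read as not computed.

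The test planned across libraries could not be run, because the table holds no library values. The authors' comparison was described instead, with lines merged to distinct regions. Columns of single libraries left out numbered 0, and depth per library is unknown. Members and lists were chosen with earlier results of these data known. Centring subtracted the median of tested regions and kept the standard errors, and it was checked on simulated data with Benjamini-Hochberg adjustment. Regions named were calls, the 5 largest and 5 smallest fold changes, the 5 smallest p-values, the 3 extremes of level and width at starts, regions beyond 50 kb and shared starts; other names with an unadjusted p-value under 0.05 and the list genes were chosen after their values were seen. Promoters were matched by symbol to RefSeq (GRCh38.p14), with 69 of 77 found. The members without an entry were MRPL2, MRPL10, MRPL13, MRPL15, MRPL21, MRPL23, MRPL35 and MRPS28. Alternatives covered thresholds, adjustment, centring, level filters, regions counted, reference sets and promoter windows. Python 3.11.15, pandas 2.3.3, numpy 2.4.6, scipy 1.17.1 and matplotlib 3.10.9 were used.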

Additional observations from a re-analysis of the deposited data

How the results depend on the processing

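The count of member regions past the threshold was 0 in the authors' deposited table, and stayed 0 at an adjusted p-value under 0.01, with adjustment over all distinct regions, after centring, at starts only and over table lines; an unadjusted p-value under 0.05 gave 15. The share of positive member regions, 92.2%, was 74.3% with no filter on level, 96.3% at a level of at least 100, 97.3% at starts and 96.1% with 1 region per gene, and centring reversed it to 37.6%. Centring (added after seeing the data) moved the median log2 fold change of member regions from 0.26 to -0.066. In both reversals the subtracted median of all tested regions, 0.32, was larger than the members' own median of 0.26. The cause of the other shifts was not tested. The median ran from 0.23 to 0.29 in the other settings and from 0.26 to 0.27 with each gene left out. The share of member starts below the reference median, 72.0%, was 65.3 to 73.3% with 4 other references, also added later. The E-box share was 4.35% with the window shortened to 150 bases before the start, against 10.1%. Of 41 alternatives, 33 left the result where it was, 6 moved it and 2 reversed it. No paired analysis was possible because values of single libraries are not in the table analysed, and for the same reason no library could be left out. The errors are those of the authors' model, and the table holds no depth.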
